A study of Mus musculus with 36 samples.

Results

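The lungs of mice given 54 µg of tube-shaped titanium dioxide nanoparticles were compared with those of control mice 28 days after a single intratracheal instillation. The arrays were chosen by their dose and time labels alone, and they comprise 9 of the 36 arrays of the series. They come from 4 mice at 54 µg (5 arrays) and 3 control mice at 0 µg (4 arrays), out of 29 mice in all. Replicate 1 of each group was hybridised on 2 arrays, which were tied to 1 mouse by their sample number and averaged. All the mice were female C57BL/6, wild type as far as the labels say, and 5 to 7 weeks old at the start. The suspension was given in 40 µl, and the labels do not say what the control mice received besides a dose of 0 µg. The other groups used below are 4 mice each at 18 µg and 162 µg at day 28, and 3 mice at 54 µg with 4 control mice at day 1. RNA came from random sections of frozen lung, labelled with Cy5 and hybridised against a Cy3 reference RNA pooled from 11 mouse cell lines. A value below is log2(Cy5/Cy3), so it ranks mice for a given probe but not probes against each other. The labels give 5 animals per group for the RNA, and 3 or 4 are analysed here.

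Particles that reach the alveoli are taken up by resident alveolar macrophages and, when they persist, can keep recruiting monocytes and neutrophils. Lung epithelium answers such injury with acute phase proteins such as serum amyloid A and lipocalin 2, and with chemokines that draw in leukocytes. Macrophages that have engulfed undigested or lipid material raise a programme that includes the glycoprotein Gpnmb, the lipid receptor Trem2 and the protease cathepsin K. Type I interferon switches on antiviral genes such as the Ifit, Oas and Rsad2 genes.

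The mice at 54 µg differed most in tissue other than lung parenchyma. Skeletal muscle genes had a mean log2 Cy5 signal of 10.12 and 13.44 on the 2 arrays of 54 µg replicate 1, 12.69 in replicate 2, 11.79 in replicate 3 and 7.35 in replicate 4, against 7.18 to 7.87 on the 4 control arrays. Replicates 1 to 3 therefore stood well above the controls in the 37 measured muscle genes, and replicate 4 lay within the control range. Squamous epithelium genes, a class that lines oesophagus and upper airway, ranged from 7.68 to 13.24 over the 54 µg arrays and from 7.70 to 8.04 over the control arrays, with replicate 4 again lowest. Cardiac muscle genes were highest in replicate 3, at 14.64, against 8.19 to 11.10 on the other 54 µg arrays and 7.70 to 9.91 on the control arrays. Brown fat genes were also highest in replicate 3, at 11.49, against 7.81 to 8.20 on the control arrays. Both lists were also raised on some 18 µg arrays of day 28, where cardiac genes ran from 9.39 to 12.21 and brown fat genes from 8.12 to 10.57. On the 162 µg arrays they ran from 7.64 to 10.54 and from 7.65 to 8.28. The markers that define lung were high on every array: type II cell genes averaged 12.39 to 13.50 on the 54 µg arrays and 13.21 to 13.49 on the control arrays.

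**Figure D1:**
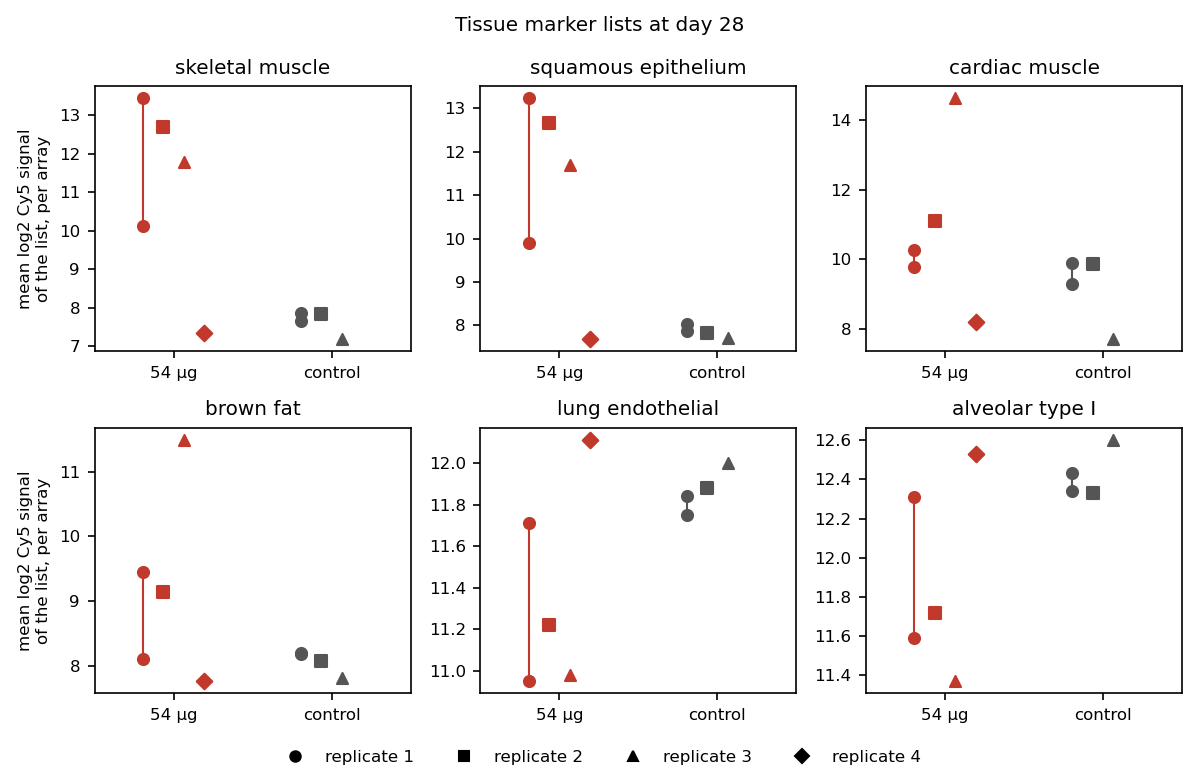
Mean log2 Cy5 signal of 6 tissue marker lists on each array at day 28, with a symbol for each mouse and a line joining the 2 arrays of replicate 1. Skeletal muscle and squamous lists were high in 54 µg replicates 1 to 3, while replicate 4 lay with the controls; the endothelial and type I cell lists ran the other way.

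The 2 arrays of 54 µg replicate 1 correlated across genes at r = 0.882, whereas those of control replicate 1 correlated at r = 0.967. The second array of 54 µg replicate 1 was closer to replicate 2 (r = 0.951) than to its own first array, and the first array was closest to a control array (r = 0.956). Replicate 4 correlated with the control arrays at r = 0.966 to 0.980. These r are across genes, which are not independent replicates. The muscle signal was not particular to the dose: arrays with muscle transcripts (a list mean above 9) came from 0 of 3 mice at 0 µg, 1 of 4 at 18 µg, 3 of 4 at 54 µg and 0 of 4 at 162 µg at day 28. At day 1 they came from 1 of 3 mice at 54 µg and 4 of 4 controls. The squamous list was 9.91 to 13.24 on the arrays of 54 µg replicates 1 to 3, and at most 8.07 on every other day 28 array. The 18 µg mouse with muscle transcripts read 7.88 for it. At day 1 the squamous list was also high on some arrays, such as 12.47 in 54 µg replicate 2 and 12.80 in control replicate 4. Per gene the muscle difference was large but followed the division of 54 µg replicates 1 to 3 from replicate 4. Skeletal alpha-actin (Acta1), the actin of the sarcomere, had values of 6.14, 6.97, 6.00 and -2.36 in the 54 µg mice, against -1.95, -2.08 and -2.40 in the controls. Keratin 13 (Krt13), a keratin of non-cornifying squamous epithelium, had values of 5.31, 6.31, 6.02 and -1.87 at 54 µg, against -1.79, -1.54 and -1.89 in controls. Both differences span a wide interval, 6.33 on the log2 scale for Acta1 (95% interval 0.66 to 12.00) and 5.68 for Krt13 (1.28 to 10.09), and neither was called (limma, adjusted p = 0.749 for each over 23255 genes). Keratin 4 (Krt4), the partner of Krt13, and the fast myosin heavy chain Myh4 were well above background on 4 of the 5 arrays at 54 µg and on none of the 4 control arrays. Their mean level was at least 40.1-fold (Krt4) and at least 21.4-fold (Myh4) higher at 54 µg (adjusted p = 0.749 for each by limma). For these folds the control signal was set no lower than the dimmest probe well above background on its array. A gene entered the fit if 3 or more mice of any group had it well above background, which the 54 µg group alone can meet. Detection counts and folds of genes absent from the controls are therefore descriptions only.

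At 54 µg, 0 of 23255 genes were called against the day 28 controls (0%, limma with Benjamini-Hochberg adjustment, adjusted p under 0.05, two-sided), and the smallest adjusted p was 0.749. An unadjusted p under 0.05 was reached by 1430 genes (6.15%), of which 704 (3.03%) were higher and 726 (3.12%) lower at 54 µg. Groups did not overlap for 698 genes higher in every 54 µg mouse than in every control (3%) and for 936 lower (4.02%). The median log2 difference over all genes was -0.02. A fit on these 7 mice alone, in place of all 29, also called 0 genes. The samples are separate mice by their sample numbers, so the spread covers animals. For the gene lists below, values and intervals are given, and no change was called.

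**Figure D2:**
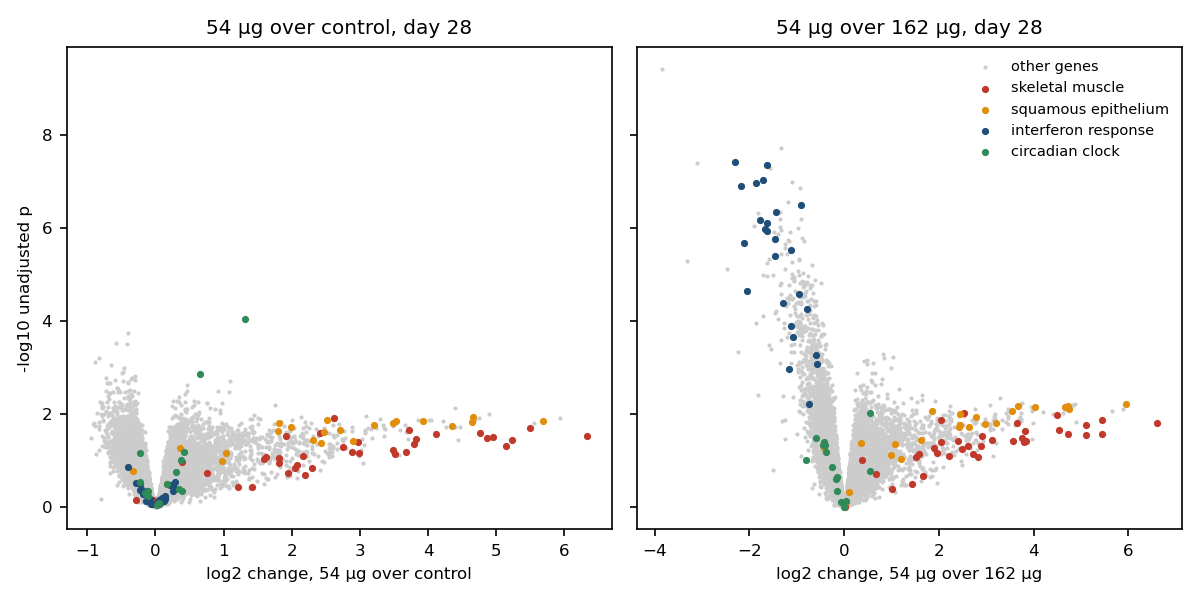
Unadjusted p (as -log10) against log2 change for the 23255 genes tested, for 54 µg over control (left) and 54 µg over 162 µg (right) at day 28. On the left, muscle and squamous genes lie far to the right at moderate p and no gene was called; on the right, 235 genes were called, all lower at 54 µg, among them 21 of the 25 interferon genes tested.

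The gene with the smallest p was Dbp, a transcription factor of the PAR-bZIP family whose RNA cycles with the circadian clock. Its values were 1.02, 1.41, 1.30 and 0.94 in the 54 µg mice, against 0.16, -0.66 and 0.05 in the controls, so the groups did not overlap. The difference was 1.32 ± 0.28 on the log2 scale (SE, 95% interval 0.74 to 1.89, unadjusted p = 8.93e-05, limma adjusted p = 0.749). Its separation rested on averaging the arrays of a mouse. Dbp read 0.44 and 1.61 on the 2 arrays of 54 µg replicate 1, against 0.87 and -0.55 on the 2 arrays of control replicate 1, so that array values of the groups overlapped. Within a slide, the 54 µg array minus the control array was -0.44 on slide 1, 1.95 on slide 3, 0.89 on slide 4 and 2.16 on slide 5. Nr1d1, the clock repressor REV-ERB alpha, had values of 1.77, 1.54, 1.72 and 1.63 at 54 µg, against 1.31, 0.79 and 0.93 in controls (difference 0.65 ± 0.18, SE, unadjusted p = 0.00134, limma adjusted p = 0.749), and on slide 1 it too ran the other way (-0.48). Arntl, the activator BMAL1 whose RNA peaks in antiphase to Dbp, had values of 0.60, 0.45, 0.31 and 0.34 at 54 µg, against 0.66, 0.68 and 0.61 in controls (difference -0.22, unadjusted p = 0.289), with every 54 µg mouse below every control, by 0.60 against 0.61 at the nearest. Its arrays overlapped too, and on slide 1 the 54 µg array was 0.13 higher than the control array.

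**Figure D3:**
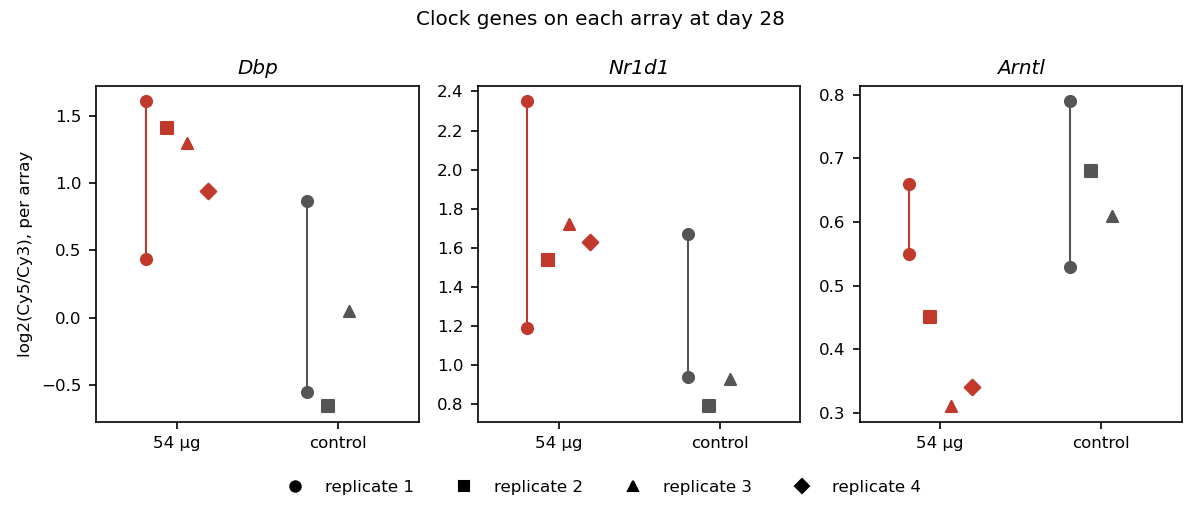
log2(Cy5/Cy3) of 3 clock genes on each array at day 28, with a symbol per mouse and a line joining the 2 arrays of replicate 1. Dbp spans 0.44 to 1.61 within 54 µg replicate 1 and -0.55 to 0.87 within control replicate 1.

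Of the 15 clock genes tested, 2 were higher and 0 lower at an unadjusted p under 0.05, beside 3.03% and 3.12% of all genes. The list's median difference was 0.17, beside -0.02 for all genes. The time of day of collection is not in the labels, and its part in these values was not tested. Dbp was also high in the 162 µg mice (1.68, 1.21, 1.59 and 2.54) and lay at 0.10, 0.35, -0.16 and 0.36 in the 18 µg mice. Clock genes beyond Dbp were chosen for mention after their values were seen.

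The other genes with the smallest p were lower at 54 µg. Lyn, a Src family kinase of myeloid and B cells, had values of 0.66, 0.43, 0.56 and 0.94 at 54 µg, against 1.08, 1.36 and 1.22 in controls. Its difference was -0.58 ± 0.14 (SE, unadjusted p = 0.000292, limma adjusted p = 0.749), and it was negative within each of the 4 slides that held both groups, at -0.29, -0.81, -0.29 and -0.57. Scgb1c1, a secretoglobin, had values of 4.35, 4.32, 3.99 and 4.91 at 54 µg, against 5.35, 5.30 and 5.21 in controls (difference -0.89, 95% interval -1.37 to -0.41). Rasl11a, a small GTPase, differed by -0.83, but on slide 1 its 54 µg array was 0.31 higher than the control array. Tfcp2l1, a grainyhead-family transcription factor, differed by -0.65, and Dtx4, an E3 ligase of the Deltex family, by -0.49. These falls were not all particular to 54 µg. On the 162 µg arrays Lyn read 0.74 to 1.00, Scgb1c1 4.56 to 4.96, Rasl11a -1.07 to -0.70 and Dtx4 0.23 to 0.46, each below every control array. Tfcp2l1, at 1.26 to 1.57 there, overlapped the control arrays. The remaining 4 of the 10 genes with the smallest p have no symbol here, and they were lower at 54 µg by 0.40 to 0.48. With the muscle and squamous scores of each mouse as covariates, the differences were -0.46 for Lyn and -0.51 for Scgb1c1, and 0 genes were called.

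Among genes of inflammation none was called, and the mice differed from each other. Serum amyloid A3 (Saa3), an acute phase protein made in the lung, had values of -1.57, -2.45, -2.68 and -3.38 at 54 µg, against -3.56, -3.55 and -3.71 in controls. Every 54 µg mouse was above every control, replicate 4 by little, and the difference was 1.09 with a 95% interval of -0.18 to 2.36 (unadjusted p = 0.0887). Ly6i, a GPI-anchored protein of the Ly6 family found on myeloid cells, read 2.57 in replicate 1, and 1.05, 0.39 and 0.51 in the other 54 µg mice, against 0.61, 0.47 and 0.50 in controls. That value averages 1.1 and 4.04 on the 2 arrays of replicate 1. The neutrophil chemoattractant Cxcl5 read -1.53 in replicate 1 and -3.20, -2.82 and -3.31 in replicates 2 to 4, against -3.03, -2.83 and -3.80 in controls. Lipocalin 2 (Lcn2), which withholds iron from bacteria, read 3.25, 2.61, 1.44 and 1.88 at 54 µg, against 2.20, 1.68 and 1.89 in controls. For Ly6i, Cxcl5 and Lcn2 the groups overlapped, and the differences of 0.60, 0.50 and 0.37 have 95% intervals that include 0. Without replicate 1 the Ly6i difference was 0.12 and that of Saa3 was 0.77.

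**Figure D4:**
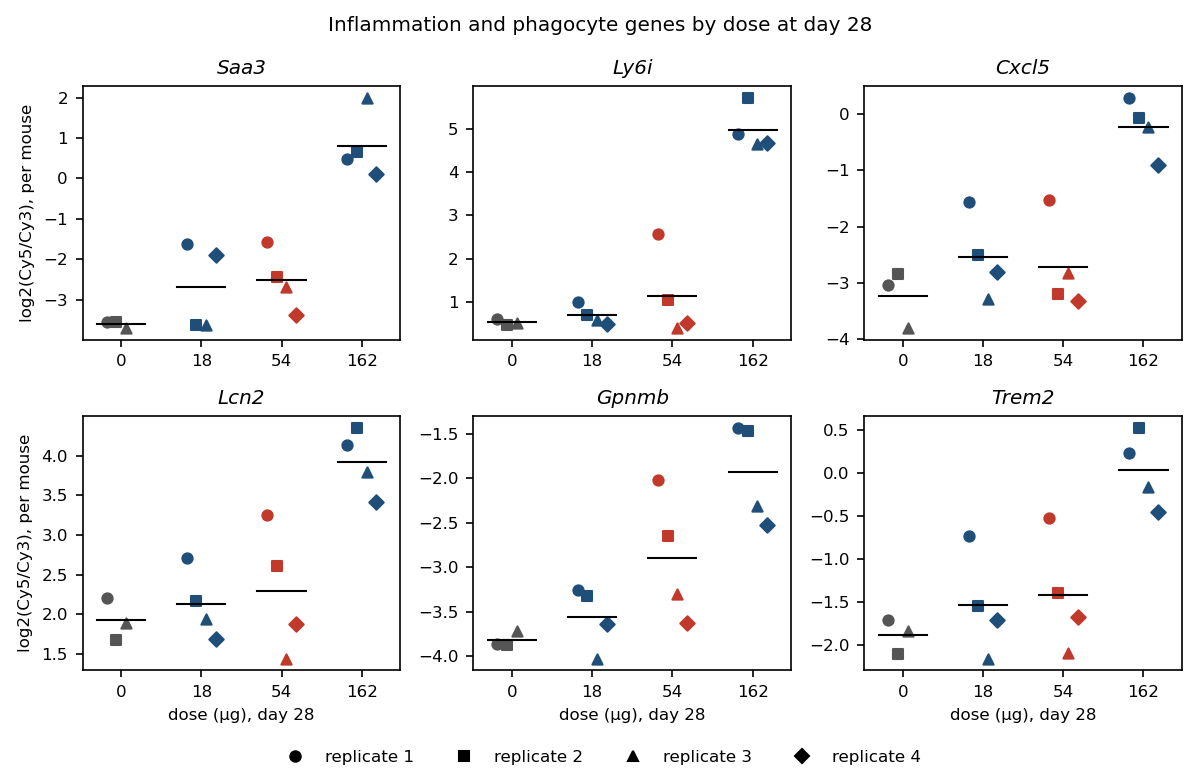
log2(Cy5/Cy3) per mouse at day 28 for 6 genes against dose (µg), with a line at each group's mean. At 54 µg replicate 1 is the highest of the 4 mice in each panel, and all 4 mice lie below every 162 µg mouse except in Gpnmb.

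As a list, the 20 acute phase genes tested had a median difference of 0.20. At an unadjusted p under 0.05, 1 was higher and 0 lower, beside 3.03% and 3.12% of all genes. The 1 was Slpi, a protease inhibitor of mucosal and squamous surfaces, at 2.13, 3.44, 1.93 and -1.53 in 54 µg mice, against -1.23, -1.71 and -0.65 in controls, which is the division of the muscle and squamous signal. The 13 CC chemokines had a median of 0.20, with 0 at that p in either direction. Ccl2, which recruits monocytes, differed by 0.36 (95% interval -0.43 to 1.15) and Ccl7, its close relative, by 0.46 (-0.38 to 1.30). The cytokines Tnf and Il1b differed by -0.06 (-0.41 to 0.29) and -0.20 (-0.99 to 0.60). The 25 interferon response genes had a median of -0.06, with 0 at an unadjusted p under 0.05 in either direction. Irf7, the master factor of the interferon programme, read -0.48, -1.71, -0.57 and -1.11 at 54 µg, against -1.15, -1 and -1.15 in controls.

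Gpnmb, Trem2 and Ctsk, genes of phagocytes, were highest in replicate 1 or 2 and nearest to the controls in replicate 3 or 4. Gpnmb read -2.02, -2.65, -3.30 and -3.63 at 54 µg, against -3.87, -3.88 and -3.72 in controls, without overlap. Its difference was 0.92 ± 0.28 (SE, 95% interval 0.34 to 1.5, unadjusted p = 0.0031, limma adjusted p = 0.749), and it was above 0 within each slide, at 1.17, 0.58, 0.09 and 2.53. In replicate 4 alone the difference was 0.20. Trem2 read -0.52, -1.39, -2.10 and -1.68 at 54 µg, against -1.71, -2.11 and -1.84 in controls, and the groups overlapped. Cathepsin K (Ctsk), a collagen-degrading protease, read 3.29, 3.31, 2.60 and 2.54 at 54 µg, against 2.37, 2.39 and 2.58 in controls. The list of 21 genes of lipid-laden phagocytes, which holds all 3 of them, had a median of 0.13. At an unadjusted p under 0.05, 2 of its genes were higher and 0 lower, beside 3.03% and 3.12% of all genes. Marco, the scavenger receptor of alveolar macrophages that binds particles, differed by 0.02, and the 19 alveolar macrophage genes had a median of -0.21. The 23 lysosome genes had a median of -0.09.

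Some genes often read as markers of alternative activation or oxidative stress divided the mice as the tissue lists did, and the part of that tissue in their values was not tested. Arg1, which degrades arginine, read 2.26, 2.35, 1.78 and 0.84 at 54 µg, against 0.90, 0.50 and 0.62 in controls. Metallothionein 2 (Mt2), a zinc-binding protein, read -1.28, -0.20, -2.10 and -3.50 at 54 µg, against -3.09, -3.28 and -3.53 in controls. In both, replicate 4 lay within the control range, as the muscle list did. With the tissue covariates the difference of Arg1 was 0.16, against 1.13 without them, and that of Mt2 was 0.28, against 1.53. The decoy receptor Il1r2, at 2.51, 3.34, 1.80 and 0.72 in 54 µg mice against 0.35, 0.46 and 0.22 in controls, did not overlap and differed by 1.75 (0.54 with the covariates). Retnla, a secreted marker of alternative activation, read 5.84, 6.15, 6.32 and 5.34 at 54 µg, against 5.32, 5.67 and 4.50 in controls. In bulk tissue, more cells of a type and more RNA per cell cannot be told apart.

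The medians of the alveolar wall lists lay below the control mean in the 3 mice with muscle signal, and the part of that signal in them was not tested. For the 21 endothelial genes, the median over the list minus the control mean was -0.42, -0.48, -0.76 and 0.14 in 54 µg replicates 1 to 4. Of these 21 genes, 5 were lower and 0 higher at an unadjusted p under 0.05, beside 3.12% and 3.03% of all genes. VE-cadherin (Cdh5), the junction protein of endothelium, read 6.11, 6.08, 5.38 and 6.63 at 54 µg, against 6.63, 6.64 and 6.80 in controls. The adhesion molecule Esam read 3.87, 3.53, 3.56 and 4.08 at 54 µg, against 4.28, 4.13 and 4.39 in controls. The 14 type I cell genes had medians of -0.29, -0.60, -0.85 and 0.02, and the 16 NK and cytotoxic genes of -0.54, -0.43, -1 and 0.26, in 54 µg replicates 1 to 4. In all 3 lists replicate 3 was lowest and replicate 4 highest, with replicate 4 at or above the control mean. Tbx21, the T-bet factor of NK and T helper 1 cells, read 1.38, 0.94, 0.86 and 1.64 at 54 µg, against 1.99, 1.79 and 1.83 in controls. With the covariates the medians of the fit were 0.01 for endothelial, -0.03 for type I and -0.06 for NK genes, against -0.35, -0.43 and -0.44 without them. The NK list was also below control at the other doses of day 28. At 162 µg, with muscle transcripts in 0 of 4 mice, the medians against control were -0.12 for endothelial, -0.07 for type I and -0.32 for NK genes. At 18 µg they were -0.25, -0.28 and -0.28. Surfactant protein C (Sftpc) of type II cells differed by -0.16 and the club cell secretoglobin Scgb1a1 by -0.05.

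**Figure D5:**
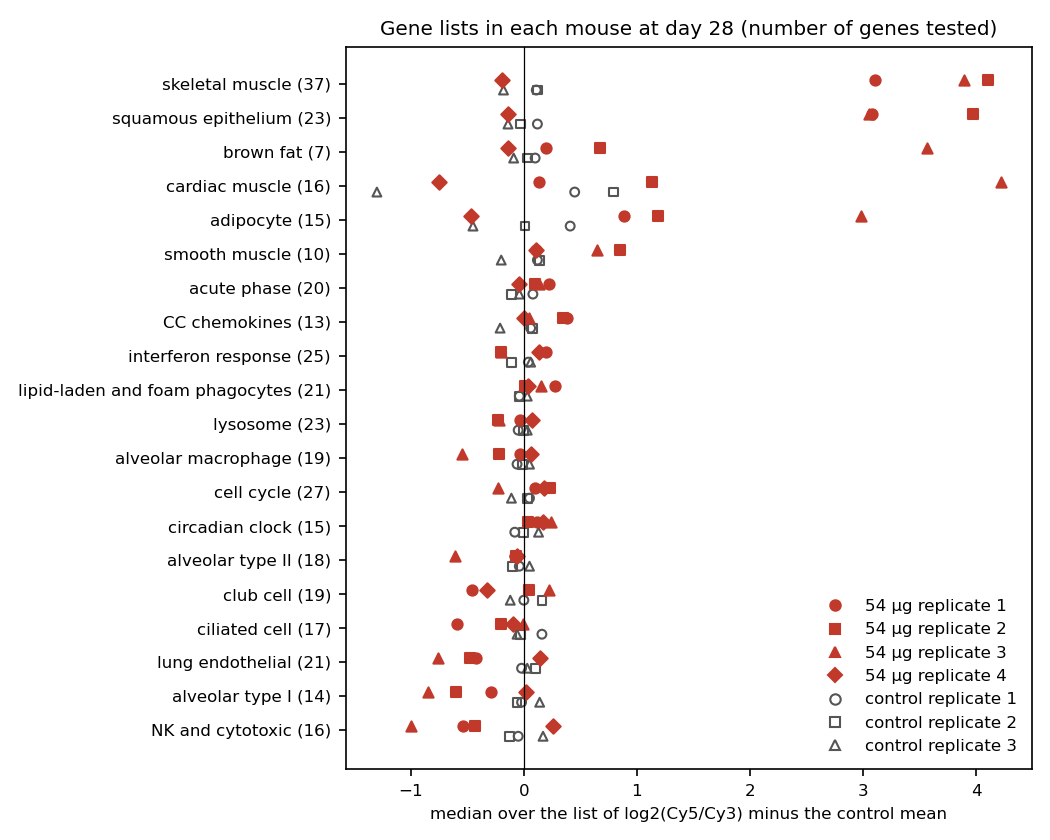
For each gene list (genes tested in brackets), the median over its genes of log2(Cy5/Cy3) minus the control mean, with filled symbols for the 54 µg mice and open ones for the controls. Muscle and squamous lists reach 3.05 to 4.11 in 54 µg replicates 1 to 3, while the acute phase, chemokine and interferon lists lie between -0.20 and 0.38 in all 4 mice.

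Against the 162 µg mice of the same day, 235 of 23255 genes were called, all lower at 54 µg (1.01%, limma, adjusted p under 0.05), and 215 of them by more than 1.5-fold. The called genes had a median difference of -0.92 from 162 µg and of -0.08 from the controls. Of the 235, 126 (53.6%) were also called for 162 µg against control, beside 146 of all 23255 genes. Both comparisons use the same 162 µg mice, so an overlap is built in. The 54 µg mean lay within the range of the 3 controls for 93 of them, below it for 100 and above it for 42. These genes were picked for low values at 54 µg, which draws their position against the controls downward. The same shares over all genes are not given here. Interferon response genes were the main group: 21 of 25 tested were called lower, and 0 higher. Their median difference at 54 µg was -1.45 from 162 µg and -0.06 from control, while at 162 µg it was 1.52 from the same controls. Isg15, a ubiquitin-like modifier, read -0.57, -0.85, -0.64 and -1.20 at 54 µg, against 0.47, 1.82, 1.92 and 0.68 at 162 µg (difference -2.04, limma adjusted p = 0.00639, but 0.0867 with the tissue covariates). Rsad2 (viperin), an antiviral radical SAM enzyme, read 0.42, -0.62, -0.21 and 0.47 at 54 µg, against 1.22, 2.28, 1.95 and 1.51 at 162 µg (difference -1.72, limma adjusted p = 0.000277). Oas1a, a sensor of double-stranded RNA, read 0.58, -0.62, -0.52 and -0.27 at 54 µg, against 1.66, 2.34, 2.25 and 2.14 at 162 µg (difference -2.31, limma adjusted p = 0.000196). Ifit1, which binds viral RNA, read -0.14, -0.84, -0.49 and -0.22 at 54 µg, against 0.80, 1.60, 1.51 and 1.54 at 162 µg (difference -1.78, limma adjusted p = 0.000773). By mouse the groups did not overlap in any of these 4 genes, but all were picked from the called genes. Of those 235, 227 (96.6%) did not overlap either, beside 5.31% of all genes with every 54 µg mouse lower. The value of 162 µg replicate 1 averages unlike arrays, at -1.21 and 2.15 for Isg15, 0.20 and 2.24 for Rsad2, and -0.34 and 1.94 for Ifit1. By array the groups overlapped in these genes, but not in Oas1a. Isg15 and Ifit1 were chosen for mention after their values were seen.

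The promoters of these 4 genes are shown because each holds the core of the interferon-stimulated response element, a short motif of interferon-induced genes. The sequences run 250 bases before to 50 bases after the start of the gene (RefSeq, build GRCm38.p6), 5′ to 3′ on the gene's strand, with matches to GAAA, any 2 bases and GAAA again, on either strand, in capitals. Matches in Oas1a and Isg15 overlap each other.
Rsad2 (chr12:26456403-26456702, minus strand): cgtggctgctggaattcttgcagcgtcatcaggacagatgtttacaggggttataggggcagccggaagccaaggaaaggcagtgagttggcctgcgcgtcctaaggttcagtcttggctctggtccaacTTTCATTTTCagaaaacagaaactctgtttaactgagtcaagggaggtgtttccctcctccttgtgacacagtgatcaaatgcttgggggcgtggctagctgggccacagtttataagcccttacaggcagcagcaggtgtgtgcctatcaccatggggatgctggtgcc
Oas1a (chr5:120907476-120907775, minus strand): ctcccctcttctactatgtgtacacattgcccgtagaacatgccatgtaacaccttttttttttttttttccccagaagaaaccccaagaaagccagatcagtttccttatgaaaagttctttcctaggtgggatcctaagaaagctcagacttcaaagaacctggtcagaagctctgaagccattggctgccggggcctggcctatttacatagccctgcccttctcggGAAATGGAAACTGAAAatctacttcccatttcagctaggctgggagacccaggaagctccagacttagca
Isg15 (chr4:156200769-156201068, minus strand): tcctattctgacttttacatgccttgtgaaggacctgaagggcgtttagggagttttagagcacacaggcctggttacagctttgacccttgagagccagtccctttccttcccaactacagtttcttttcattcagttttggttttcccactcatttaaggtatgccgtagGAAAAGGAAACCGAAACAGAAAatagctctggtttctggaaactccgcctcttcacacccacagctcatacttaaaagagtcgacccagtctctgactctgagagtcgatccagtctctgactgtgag
Ifit1 (chr19:34640639-34640938, plus strand): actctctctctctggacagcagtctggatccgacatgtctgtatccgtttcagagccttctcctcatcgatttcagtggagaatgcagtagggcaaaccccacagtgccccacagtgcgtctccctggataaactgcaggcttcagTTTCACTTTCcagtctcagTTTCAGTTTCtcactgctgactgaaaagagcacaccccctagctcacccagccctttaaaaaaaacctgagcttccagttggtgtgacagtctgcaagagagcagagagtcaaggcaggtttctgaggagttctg
Of the 21 interferon genes called, 17 were matched to a promoter by symbol, and 10 of the 17 (58.8%) hold the motif. Over all 235 called genes, 144 were matched and 44 (30.6%) hold it, beside 1079 of the 27025 genes in the promoter table (3.99%). A match is a description of these letters and not evidence of a bound site.

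Among the called genes, Ly6i, Saa3 and Ly6f had the largest differences. Ly6i averaged 1.13 ± 1.00 at 54 µg and 4.98 ± 0.51 at 162 µg (SD, n = 4 each), 14.5-fold lower at 54 µg (95% interval of the log2 difference -4.64 to -3.07, limma adjusted p = 8.73e-06). Saa3 averaged -2.52 ± 0.75 at 54 µg and 0.81 ± 0.83 at 162 µg (SD, n = 4 each), with a difference of -3.32 (limma adjusted p = 0.00256). Ly6f differed by -3.10, Cxcl5 by -2.48 and Lcn2 by -1.63, all called. Near-identical family members, such as the Ly6, Saa and Oas genes, may share signal on a probe. Of the 20 acute phase genes 5 were called lower, of the 23 lysosome genes 5, of the 19 alveolar macrophage genes 4 and of the 21 genes of lipid-laden phagocytes 4, and 0 were called higher. Over all genes, 1.01% were called lower and 0% higher. With the tissue covariates 3 of those 5 acute phase genes and 14 of the 21 interferon genes were still called, and 0 of the lysosome, alveolar macrophage and lipid-laden phagocyte genes. Trem2 was among them (-1.46, limma adjusted p = 0.0126, and 0.108 with the covariates), and so were cathepsin S (Ctss, -1.14, adjusted p = 0.304 with the covariates) and the endosomal glycoprotein Cd68 (-0.80, adjusted p = 0.235 with the covariates), both chosen after their values were seen. Gpnmb was not called (-0.97, limma adjusted p = 0.0793). No 162 µg mouse counted as carrying muscle transcripts, and with the tissue covariates 74 genes were called, 71 of them among the 235.

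Among the 235 genes the 54 µg mice were not alike. Replicate 1 was the highest of the 4 for 108 genes (46%) and replicate 4 for 109 (46.4%), while replicate 2 was highest for 11 and replicate 3 for 7. Over all genes the shares were 12.2% for replicate 1, 28.9% for replicate 2, 26.1% for replicate 3 and 32.8% for replicate 4. Replicate 1 was above all 3 controls for 115 of the 235 (48.9%), beside 25.3% of all genes, and replicate 4 for 106 (45.1%), beside 25%. Replicate 2 was above them for 34 (14.5%), beside 34.6%, and replicate 3 for 24 (10.2%), beside 29.8%. The 162 µg mouse with conflicting labels, replicate 1, also had unlike arrays: its interferon genes averaged 0.46 on the first and 2.04 on the second, against 1.65 to 1.90 in the other 162 µg mice. On slide 1, which held that first array, Isg15 was 0.99 and Rsad2 0.39 higher in the 54 µg array than in the 162 µg array. With only the first array of that mouse 116 genes were called, and without the mouse 188. Leaving out 162 µg replicate 2 left 101 calls, leaving out 54 µg replicate 2 left 116, leaving out 54 µg replicate 3 left 115, and leaving out 54 µg replicate 4 gave 408.

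Against 18 µg, 0 of 23255 genes were called (0%, limma, smallest adjusted p = 0.999, 968 genes, 4.16%, at an unadjusted p under 0.05). Gpnmb differed by 0.66 between 54 µg and 18 µg, Saa3 by 0.18, Ly6i by 0.44 and Lcn2 by 0.17. The interferon list had a median difference of 0.01.

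The difference between 54 µg and control was also set against the same difference at day 1, and 0 of 23255 genes were called (0%, limma interaction, smallest adjusted p = 0.36, 2371 genes, 10.2%, at an unadjusted p under 0.05). At day 1 itself 12 genes were called, all higher at 54 µg (0.0516%). Saa3 was 4.62 higher than control at day 1 (limma adjusted p = 0.00113) and 1.09 higher at day 28 (limma adjusted p = 0.749), and the difference of the differences was -3.53 (limma adjusted p = 0.489). Lcn2 differed by 2.16 at day 1 and 0.37 at day 28, Timp1, an inhibitor of matrix metalloproteinases, by 2.25 and 0.12, and Saa1 by 2.71 and 0.20. Gpnmb differed by 0.60 at day 1 and 0.92 at day 28, and neither these differences nor the change between them was called. All 4 day 1 control mice carried muscle transcripts, against 0 of 3 day 28 controls, and the part of this in the interaction was not tested.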

How the data were processed

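Gene lists and named genes were chosen with earlier results of these data known. Agilent Feature Extraction made the spot files, per the file headers, and the deposited median spot and background intensities of both dyes were used. The deposited LogRatio column is a log10 ratio of Cy5 over Cy3 computed by the scanner software, and served as an alternative through its processed signals. The deposited value table was read as log2 of Cy5 over Cy3 from its agreement with the scanner values of each array (r = 0.986 to 0.997). Its column medians run from -0.039 to -0.017, and its normalization is not given in the sources used here.

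Background was removed with normexp (offset 50), followed by loess of log2(Cy5/Cy3) on each array and averaging of spots by probe (R 4.3.3, limma 3.58.1, data.table version 1.17.8, statmod 1.5.0). Dyes were not swapped, and 0 spots were saturated. In Cy5, 48.6% to 62.2% of probes were well above background per array. Of 55681 probes, 28026 were named by RefSeq accession, and the brightest probe stood for a gene. Genes entered the fit if 3 or more mice of a group had them well above the Cy5 background on all their arrays, leaving 23255, of which 15198 had a symbol. Arrays of a mouse were averaged. A single limma fit of group means covered the 29 mice (21 residual and 2.9 prior degrees of freedom). It was also run on simulated data with independent noise for each gene and no tissue signal. That run cannot show how the tissue signal affects the calls. The number of arrays limits the precision.

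Named genes were the 10 with the smallest p, since none was called, the member of each list with the smallest p, a list of 47 genes of inflammation, phagocytes and tissue markers, and the 5 with the largest decrease against 162 µg. Genes named after their values were seen were Nr1d1, Arntl, Cdh5, Irf7, Isg15, Ifit1, Ctss, Cd68 and any so marked in the text. An array with a muscle list mean above 9 (log2 Cy5) counted as carrying muscle transcripts. The 162 µg replicate 1 has titles of day 1 and a time label of day 28, and was kept at day 28. Slides were told apart by the slide number in the array's name.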

Additional observations from a re-analysis of the deposited data

Results flagged for a closer look

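In each group of 4 mice, a value was singled out when its gap to the nearest other mouse, as a share of the group's range, passed Dixon's 95% critical value, which chance does in about 1 in 20 groups. This was run for 90 genes and 48 list medians at 54 µg and for 23 genes at 162 µg, and it singled out 14 genes and 2 lists at 54 µg and 1 gene at 162 µg. Replicate 4 was the lowest 54 µg mouse, apart from the other 3, for Acta1 (-2.36), Myh4 (-0.16), Ckm (0.13), Myl3 (1.31), Krt13 (-1.87), Krtdap (-0.22), Crct1 (-0.38) and Mmp12 (-0.35). The first 4 are muscle genes and the next 3 squamous ones, of which Crct1 was chosen after its values were seen. Mmp12, a macrophage elastase, was well above background on 1 of the 5 arrays at 54 µg. Replicate 4 was the highest for Pecam1 (3.36), an endothelial adhesion molecule, and Clec9a (1.74), a receptor of cross-presenting dendritic cells. Replicate 3 was the highest for Ucp1 (6.34), the uncoupling protein of brown fat, for Comp (2.80), a cartilage matrix protein, and for Scd1 (5.14), a fatty acid desaturase. It was the lowest for Akap5 (4.90), listed here as a type I cell gene. The median of the fatty acid synthesis list stood apart in replicate 3 at 1.89 above the control mean, and that of the type II cell list at -0.61. At 162 µg, Ifit1 was lowest in replicate 1 (0.80), the mouse with unlike arrays.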

How the results depend on the processing

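No paired analysis was possible by replicate number because these numbers follow accession order; slide was used as a block instead, since 4 slides hold arrays of both 54 µg and control. The count of 0 against control was also 0 with every mouse left out in turn (lowest 0, highest 0; smallest adjusted p 0.208 to 0.998), with the covariates and under the other alternatives, with 3 exceptions. Without muscle arrays, 54 µg keeps only replicate 4, whose spread is then taken from the other groups: 21 genes were called against control and 21 against 18 µg, 57 against 162 µg, and 18 for day 28 against day 1. The scanner's processed signals gave 1 call, an unnamed probe. Mouse quality weights gave 3634 calls against control, 423 against 18 µg, 6092 against 162 µg and 5181 for day 28 against day 1; they gave 54 µg replicate 1 a weight of 9.62 and the other 54 µg mice 0.389 to 0.485. Median centring gave 1 call for day 28 against day 1, and moved the median of all genes there to -0.316, and to -0.166 against 162 µg.

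The 235 calls against 162 µg became 52 with only those 2 groups in the fit, 74 with covariates, 360 with slide and mouse as blocks, 151 with the mouse of conflicting labels put in day 1, and 116 with only its first array; without a mouse they ranged from 101 to 408. All 235 were lower at 54 µg, but 35 of 261 calls were higher there with only the 4 day 28 groups in the fit, 78 of 408 without 54 µg replicate 4, 18 of 360 with the blocks and 2477 of 6092 with mouse quality weights. Of 781 values for 23 genes, 116 kept their sign but lost the call. Within slides, 43 values kept their sign but moved by at least the SD of the 54 µg mice. A further 5 changed sign, all within slide 1: Cxcl10 (0.12), Irf7 (0.03), Isg15 (0.99), Ifit1 (0.35) and Rsad2 (0.39). The cause was not tested. Settings that use single arrays of a mouse were chosen after seeing the data. Signal over background limits Il6, which was above background on 1 of 5 arrays at 54 µg and on 0 of 4 control arrays.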
